A study of Mus musculus with 8 samples.

Results

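The enzymes described here carry glucose to pyruvate and lactate (glycolysis), carry pyruvate back to glucose (gluconeogenesis), or control the step between pyruvate and the citric acid cycle. A list of 35 genes was used, with the isoforms of hexokinase, phosphofructokinase, aldolase, phosphoglycerate mutase, enolase, pyruvate kinase, lactate dehydrogenase and pyruvate dehydrogenase kinase, the gluconeogenic enzymes, and Khk. All probes whose symbol in the platform annotation is 1 of these genes were taken, which gave 44 probes for 32 genes, of 25697 probes for 16593 genes in all. Gpi1, Eno1 and Ldhb had no probe under these symbols, so their expression was not analysed. They entered only the counts of motifs before transcript starts. Of the 32 genes 31 were bright enough to be tested, and Pck2 was removed by the filter on dim probes.

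The samples were 4 kidney tumors from Lin28 transgenic mice and 4 normal kidneys, each on 1 single-colour bead array. Replicate 1 of each group came from an animal of 5 weeks and replicates 2 to 4 from animals of 4 months. Lin28 is an RNA-binding protein that keeps let-7 microRNAs from maturing. The sources used here do not state which promoter drives the transgene, nor the strain or sex of the animals.

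Glycolysis splits glucose into pyruvate in the cytosol, and 3 of its steps, those of hexokinase, phosphofructokinase and pyruvate kinase, are in effect irreversible. Gluconeogenesis goes around these steps with glucose 6-phosphatase, fructose bisphosphatase and the pair of pyruvate carboxylase and phosphoenolpyruvate carboxykinase. In the kidney, gluconeogenesis is the work of proximal tubule cells, which take up the filtered glucose and live largely on oxidation, while more distal segments use glycolysis.

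Intensities are given as the authors deposited them, with the background subtracted and with the mean of all probes equal (274) on every array. The share of probes above background lay between 44.2% and 55.3%. Changes are on the scale of log2(intensity + 16), tumors minus controls, with negative intensities set to 0, which understates the change of dim genes. The array of tumor 1, the only tumor of 5 weeks, stood apart. On 155 probes it read below -3 times its noise while the other 7 arrays all read above 25, which no other array showed. Its noise was 9.19 intensity units, against 3.56 to 5.49 on the others, and its tubule genes lay between those of the other tumors and those of the controls. The sum of 7 proximal tubule markers was 22651 on tumor 1, between 783 and 1772 on tumors 2 to 4, and between 26277 and 46760 on the controls. Sex differed with group as far as its markers show: Xist rose by 3.13 ± 0.33 (SE) log2 units (limma adjusted p = 3.24e-04), and Kdm5d of the Y chromosome, above background on 3 controls and 0 tumors, was at least 1.19-fold lower (limma adjusted p = 0.0365), so that tumor and sex cannot be told apart.

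Of the 31 tested enzymes 6 rose and 7 fell (limma, Benjamini-Hochberg adjusted p under 0.05 over 11413 genes and unnamed probes). The 13 called enzymes are 41.9% of the tested ones, where 44.4% of all units were called. Among all units 32.2% rose and 12.2% fell, against 19.4% and 22.6% of the enzymes. The median change of the enzymes was -0.37, and that of all units was 0.35. For 13 enzymes (41.9%) the groups did not overlap, where this held for 40.3% of all units. The enzymes were thus called about as often as genes at large, and their directions are given here by role. Of 17 glycolytic enzymes 4 rose and 0 fell (6 had an unadjusted p under 0.05), of 5 gluconeogenic enzymes 0 rose and 4 fell, and Khk fell. The count for glycolysis turned with the scaling: with median scaling 3 rose and 6 fell (Pfkp, Aldoa, Tpi1, Gapdh, Pgam2 and Pklr), with cyclic loess 3 rose and 1 fell, and with quantile normalization 4 rose and 0 fell. With median scaling, cyclic loess and quantile normalization all 5 gluconeogenic enzymes fell. With normexp correction before quantile normalization 4 of the 5 fell, and Pck1 did not pass (limma adjusted p = 0.0536). In a bulk sample fewer cells of a type and less RNA per cell cannot be told apart.

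**Figure D1:**
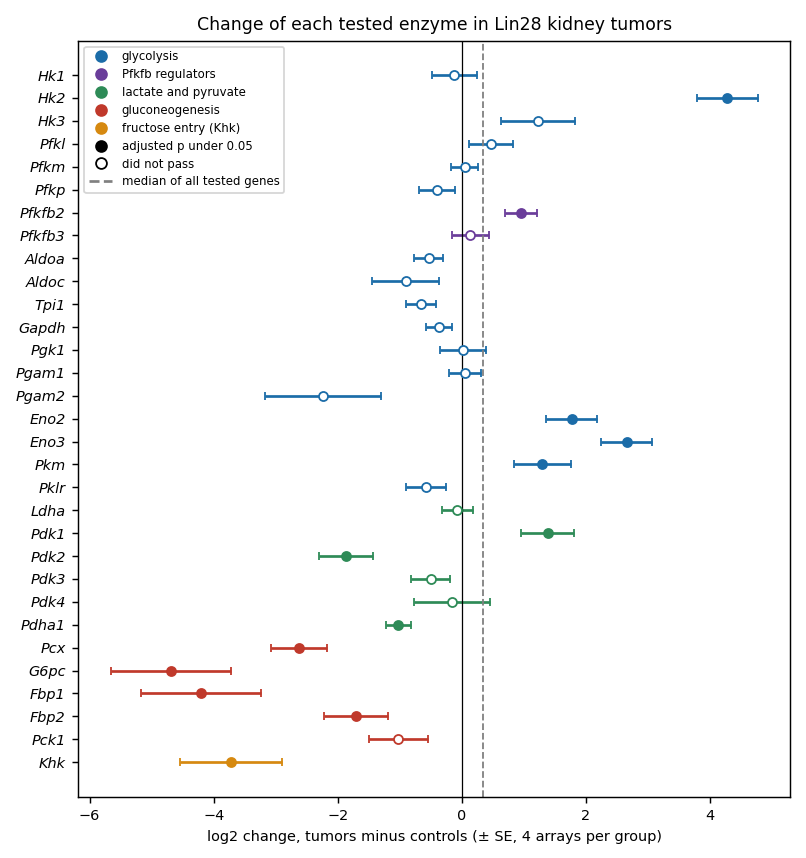
Change of each of the 31 tested enzymes on the log2(intensity + 16) scale, tumors minus controls, as points with the standard error of the limma fit (4 arrays per group). Filled points passed the adjusted p of 0.05. Hk2 lies farthest to the right at 4.28 and G6pc farthest to the left at -4.69, and the dashed line marks the median of all tested units at 0.35.

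Hexokinase traps glucose in the cell as glucose 6-phosphate. Hk2, the isoform of muscle, fat and many tumors, read 325, 1118, 678 and 1779 on tumors 1 to 4 and 17.6, 24.7, 17.7 and 57.8 on controls 1 to 4. Each tumor lay above each control, with tumor 1 the lowest of the tumors. The change was 4.28 ± 0.49 (SE) log2 units, or 19.4-fold (limma adjusted p = 4.57e-04), and it lay between 3.17 and 4.76 under all alternatives of scaling, filter and arrays that were tried. Hk1, the isoform found in most tissues, read 101, 104, 87.2 and 119 on the tumors and 55.4, 190, 73.4 and 192 on the controls. The 4 tumors lay within the range of the controls, and the change was -0.12 ± 0.36 (limma adjusted p = 0.803). Hk3, the isoform of white blood cells, read 0.4, 148, 25.5 and 21.6 on the tumors and -0.4, 7.90, 2.00 and 4.30 on the controls. All 4 controls were at or under background, and so was tumor 1, while tumor 2 was the highest. Hk3 was at least 1.34-fold higher in tumors, which did not pass (limma adjusted p = 0.121) but passed without tumor 1 (limma adjusted p = 0.0188). Of 8 markers of macrophages and other leukocytes 6 had a probe and 4 were tested. Of these 4, 75.0% rose, against 32.2% of all units. Lyz2, Adgre1 and Tyrobp rose (Lyz2 by 3.04 ± 0.73, limma adjusted p = 0.0103), and Cd52 changed by 1.55 and did not pass. Their sum was 12872 on tumor 2, 2052 to 4602 on the other tumors and 368 to 1667 on the controls, and Ptprc, a defining marker, exceeded background on none of the 8 arrays. The part of white blood cells in the level of Hk3 was not tested.

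The bases before the start of Hk2 are shown because this gene had the largest rise of the list. The stretch is chr6:82774455-82774704 on the minus strand (GRCm38.p6, RefSeq), written 5′ to 3′ with the start of the transcript after its last base. Capitals mark ACGTG, the core of the hypoxia response element, read on either strand.
Hk2: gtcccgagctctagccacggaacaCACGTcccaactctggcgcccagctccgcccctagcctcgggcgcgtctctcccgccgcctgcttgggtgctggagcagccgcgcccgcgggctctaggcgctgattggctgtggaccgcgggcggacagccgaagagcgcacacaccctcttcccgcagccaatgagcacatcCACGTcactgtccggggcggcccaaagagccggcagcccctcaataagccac
Both matches lie on the opposite strand, with their first printed bases 226 and 52 bases before the start. ACGTG on either strand occurs in 16.6% of 32851 stretches of 250 bases before RefSeq starts in the mouse. Of the 53 such stretches of the enzymes 19 (35.8%) hold it. Among the 35 enzymes, 15 (42.9%) hold it before at least 1 of their starts, against 18.5% of all 27025 genes. The share per gene also depends on the number of starts, which was higher per gene for the enzymes than for all genes. Besides Hk2, the holders were Pfkfb2 and Pkm, which rose, Pdk2, Pcx, Fbp2 and Khk, which fell, and 8 that did not pass (Hk3, Pfkm, Pfkfb3, Aldoa, Pgk1, Pgam1, Ldha and Pdk3). Of 15 targets of the hypoxia-inducible factor outside the pathway 13 were tested, of which Kdm3a, a histone demethylase, rose (1.54 ± 0.27, limma adjusted p = 0.00287) and 2 fell (7.69% and 15.4%, against 32.2% and 12.2% of all units), with the larger fall in Ndrg1, a stress-response gene (-2.44 ± 0.61, limma adjusted p = 0.0118). The median change of the 13 was 0.51, where that of all units was 0.35.

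Phosphofructokinase commits the sugar to glycolysis, and none of its 3 isoforms passed the test. Pfkl, the liver isoform, read 783, 1795, 859 and 2238 on the tumors and 757, 1165, 804 and 1020 on the controls. Tumors 2 and 4 lay above all controls and tumors 1 and 3 did not, and the change was 0.47 ± 0.36 (limma adjusted p = 0.311). A second, dimmer Pfkl probe changed by -0.33 ± 0.40 when every probe was tested by itself (limma adjusted p = 0.540). With the kept probes of Pfkl averaged the change was 0.07. Pfkm, the muscle isoform, changed by 0.05 ± 0.22 on its brightest probe and by 0.18 and 0.14 on 2 others, none of which passed. Pfkp, the platelet isoform, changed by -0.40 ± 0.28 (limma adjusted p = 0.279). The change of Pfkp passed as a fall with cyclic loess (-0.80, limma adjusted p = 0.0457) and with median scaling (-0.77, limma adjusted p = 0.0489).

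Pfkfb enzymes make and remove fructose 2,6-bisphosphate, the activator of phosphofructokinase. Pfkfb2, the heart isoform, read 155, 145, 178 and 174 on the tumors and 51.3, 122, 55.5 and 94.6 on the controls, with no overlap. It rose by 0.95 ± 0.25 (limma adjusted p = 0.0159), a call that was lost with each of the 4 other scalings (0.38 to 0.58), with both of its kept probes averaged (0.48, limma adjusted p = 0.0633) and without control 3 (0.83, limma adjusted p = 0.0506). Its second probe, above background on none of the 8, changed by 0.013. Pfkfb3, an isoform that favours the synthesis of the activator, was above background on 1 tumor and 1 control and changed by 0.14 ± 0.30 (limma adjusted p = 0.738).

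**Figure D2:**
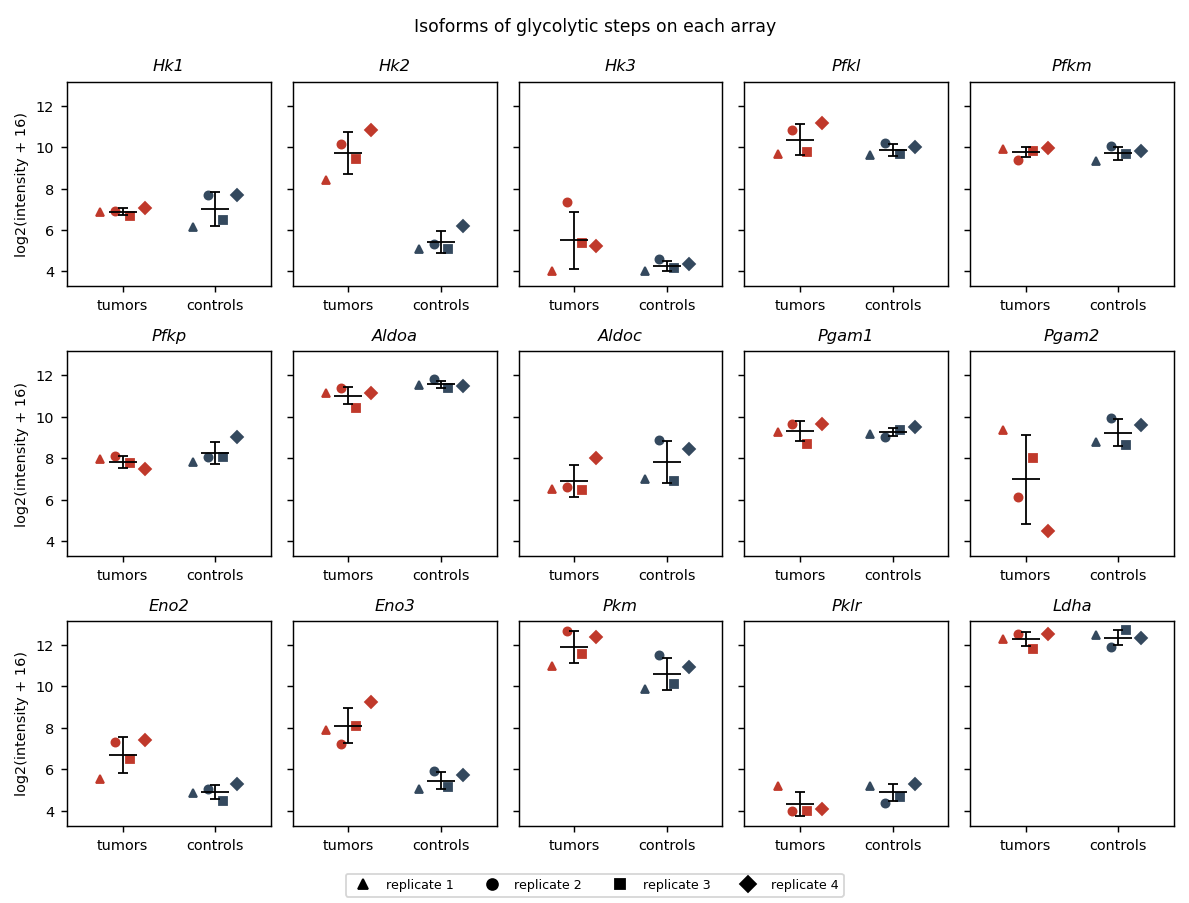
Values of 15 enzymes, isoforms of glycolytic steps and Ldha, on each array as log2(intensity + 16). Tumors are in red and controls in dark blue, with the symbol giving the replicate and the bar the mean with its SD (n = 4). Hk2, Eno2 and Eno3 show tumors above controls without overlap, while Hk1, Pfkm and Ldha overlap; levels of different genes come from different probes and cannot be compared.

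Aldolase splits the 6-carbon sugar, and triose phosphate isomerase and Gapdh handle its products. Aldoa, the isoform of muscle and most tissues, read 2262, 2630, 1331 and 2253 on the tumors and 2949, 3582, 2654 and 2842 on the controls. Each tumor was below each control, yet the change of -0.54 ± 0.24 did not pass (limma adjusted p = 0.0964). Aldoc, the brain isoform, changed by -0.91 ± 0.54 (limma adjusted p = 0.196), with 71.9 to 245 on tumors and 101 to 450 on controls. Tpi1 read 6014, 5621, 3062 and 4361 on the tumors and 8420, 6173, 7517 and 7346 on the controls. It also separated the groups, and its change was -0.67 ± 0.24 (limma adjusted p = 0.0504). It passed without tumor 1 (-0.79, limma adjusted p = 0.0240) and without tumor 2 (-0.76, limma adjusted p = 0.0468). A second Tpi1 probe fell by 0.83 ± 0.22 when every probe was tested by itself (limma adjusted p = 0.0155), while the third, a dim probe, changed by 0.43. Gapdh, often used as a reference gene, had overlapping groups with a change of -0.37 ± 0.20 (limma adjusted p = 0.172). With median scaling Aldoa (-0.91), Tpi1 (-1.03) and Gapdh (-0.74) passed as falls, and with cyclic loess none of the 3 did (-0.48, -0.44 and -0.05).

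Pgk1, which makes the first ATP of the pathway, was measured by 1 dim probe that was above background on 1 tumor and 3 controls, and its change was 0.02 ± 0.37. Phosphoglycerate mutase moves the phosphate within the 3-carbon acid. Pgam1, the general isoform, changed by 0.05 ± 0.25 (limma adjusted p = 0.886), with 392.2 to 796 on the tumors and 506 to 707 on the controls. Pgam2, the muscle isoform, read 650, 53.3, 238 and 6.10 on the tumors and 416, 968, 379 and 751 on the controls. Tumor 1 was among the controls and tumors 2 to 4 lay below all of them. The change of -2.24 ± 0.93 did not pass (limma adjusted p = 0.0784), and it passed without tumor 1 (-3.04, limma adjusted p = 0.0102) and with median scaling (-2.61, limma adjusted p = 0.0499).

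Both measured isoforms of enolase, which forms phosphoenolpyruvate, rose. Eno3, the muscle isoform, read 220, 133, 253 and 597 on the tumors and 17.1, 43.9, 19.0 and 36.9 on the controls. The lowest tumor exceeded the highest control, and the rise was 2.66 ± 0.41 log2 units, or 6.30-fold (limma adjusted p = 0.00177). Eno2, the neuronal isoform, read 29.5, 143, 74.2 and 157 on the tumors and 13.1, 17.6, 6.30 and 22.5 on the controls. The groups did not overlap, and 2 of the controls were at or under background. Eno2 rose by 1.77 ± 0.41 (limma adjusted p = 0.00927).

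Markers of muscle and nerve cells were dim. Of 7 skeletal muscle markers 3 were tested and 2 rose, Tnni2, a fast troponin, by 1.49 ± 0.24 (limma adjusted p = 0.00203). Among all units 32.2% rose. The sum of the 7 was 93.0 to 208 on the tumors and 6.90 to 31.2 on the controls, and Ckm, Myh4 and Tnnc2 exceeded background on none of the 8. Of 6 neuron markers 1 was tested, Elavl4, an RNA-binding protein of neurons, which no control showed above background and which was at least 2.74-fold higher in tumors (limma adjusted p = 0.00368). The sum of the 6 overlapped, with 24.6 to 65.2 on tumors and 14.2 to 33.2 on controls, and Tubb3, Snap25 and Nefl exceeded background on none of the 8. The part of such cells in the levels of Eno2 and Eno3 was not tested.

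Pyruvate kinase makes pyruvate and ATP in the last step. Pkm, whose transcripts give the isoforms of muscle and of growing cells, read 2021, 6406, 3018 and 5277 on the tumors and 919, 2939, 1075 and 1904 on the controls. Tumor 1 lay below control 2 and the other tumors above all controls. The rise of 1.30 ± 0.46 (limma adjusted p = 0.0476) was lost in 11 of 23 alternatives, with changes between 0.93 and 1.61 in all of them; without tumor 2 it was 1.04 (limma adjusted p = 0.116), without tumor 3 or 4 it was 1.40 and 1.14 (limma adjusted p = 0.0708 and 0.117), and without control 1, 3 or 4 it was 1.05, 1.13 and 1.40 (limma adjusted p = 0.126, 0.123 and 0.0658). Which spliced forms the Pkm probe reads was not analysed here. Pklr, the isoform of liver, kidney tubule and red blood cells, was above background on none of the tumors and above it on 2 controls, with a change of -0.58 ± 0.33 (limma adjusted p = 0.180) that passed without tumor 1 (-0.87, limma adjusted p = 0.0194) and with median scaling (-0.95, limma adjusted p = 0.0412). It read 20.2 on tumor 1, -3.10, -1.30 and 0.700 on tumors 2 to 4, and 4.90 to 22.6 on the controls. Ldha, which turns pyruvate into lactate, read 4983, 5849, 3533 and 5801 on the tumors and 5707, 3732, 6611 and 5205 on the controls. The groups overlapped, and the change of -0.07 ± 0.24 did not pass (limma adjusted p = 0.827) and changed sign with the scaling (0.20 with quantile normalization, 0.13 with cyclic loess). With array weights Ldha passed as a fall (-0.56, limma adjusted p = 0.0371).

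The pyruvate dehydrogenase complex takes pyruvate into the citric acid cycle, and Pdk kinases switch it off. Pdha1, its catalytic subunit, read 2779, 1753, 1980 and 1896 on the tumors and 3470, 4550, 4596 and 4439 on the controls. Each tumor was below each control, and Pdha1 fell by 1.03 ± 0.20 (limma adjusted p = 0.00442). Pdk2, a widely expressed kinase, read 283, 43.7, 74.4 and 73.7 on the tumors and 366, 434, 376 and 369 on the controls. It fell by 1.87 ± 0.44, or 3.66-fold (limma adjusted p = 0.00907), with tumor 1 closest to the controls. Pdk1, a target of the hypoxia-inducible factor, read 161, 244, 206 and 328 on the tumors and 36.9, 200, 49.9 and 85.0 on the controls. Control 2 lay above tumor 1. Pdk1 rose by 1.38 ± 0.43 (limma adjusted p = 0.0279), a call lost in 12 of 23 alternatives (limma adjusted p up to 0.110). It was lost with each of the 4 other scalings (changes of 0.72 to 1.01, limma adjusted p = 0.0754 to 0.110). Leaving out tumor 2, 3 or 4 (1.35, 1.43 and 1.22) or control 1, 3 or 4 (1.11, 1.21 and 1.42) also lost it. Pdk3 (-0.51 ± 0.31) and Pdk4 (-0.16 ± 0.61) did not pass (limma adjusted p = 0.212 and 0.849).

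**Figure D3:**
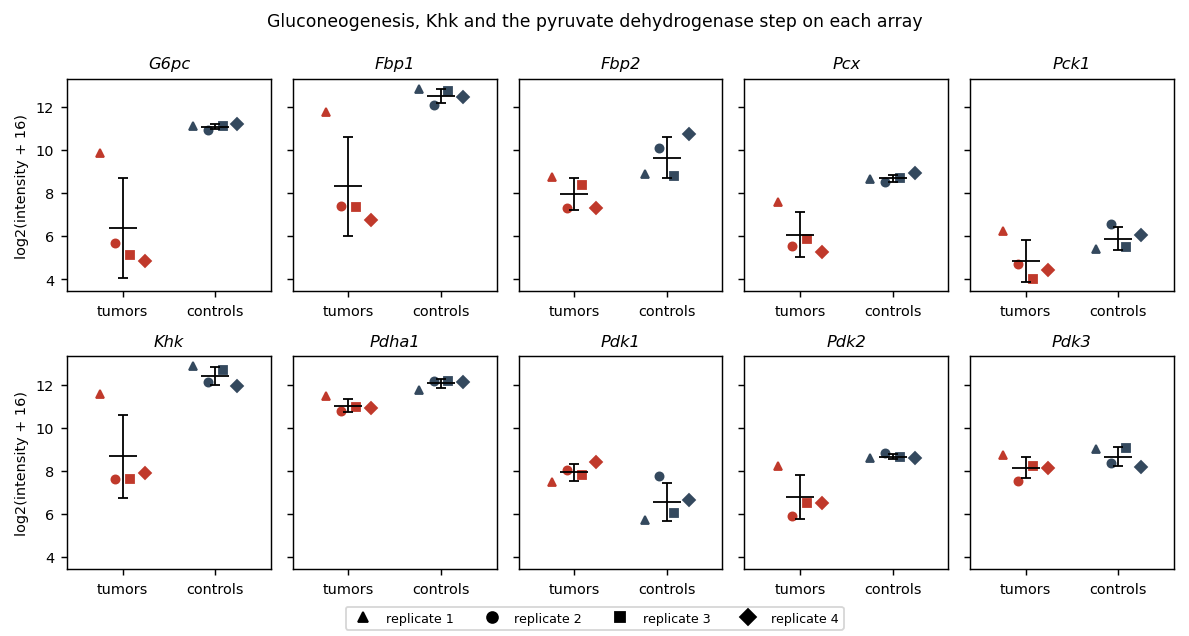
Values of the gluconeogenic enzymes, Khk, Pdha1 and Pdk1 to Pdk3 on each array as log2(intensity + 16), tumors in red and controls in dark blue, with symbols for the replicates and bars for the mean and SD (n = 4). For G6pc, Fbp1 and Khk tumor 1 (triangle) sits between tumors 2 to 4 and the controls.

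G6pc and Fbp1 had the largest falls of the list. G6pc, glucose 6-phosphatase, which frees glucose in the last step, read 898, 35.8, 19.1 and 12.7 on the tumors and 2155, 1941, 2157 and 2308 on the controls. Tumor 1 was at 42.0% of the control mean and tumors 2 to 4 between 0.593% and 1.67% of it. G6pc fell by 4.69 ± 0.97 log2 units, or 25.9-fold (limma adjusted p = 0.00545), and by 5.85 ± 0.23 without tumor 1 (limma adjusted p = 1.35e-05). Fbp1, the fructose bisphosphatase of liver and kidney, read 3386, 153, 149 and 89.6 on the tumors and 7125, 4328, 6763 and 5524 on the controls. It fell by 4.21 ± 0.96, or 18.5-fold (limma adjusted p = 0.00843), and by 5.35 ± 0.26 without tumor 1 (limma adjusted p = 1.43e-05). Both genes were thus higher on the tumor of 5 weeks than on each tumor of 4 months.

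Fbp2, the muscle isoform of fructose bisphosphatase, read 417, 141, 311 and 143 on the tumors and 461, 1080, 423 and 1709 on the controls. The groups did not overlap, although tumor 1 and control 3 almost met. Fbp2 fell by 1.70 ± 0.52 (limma adjusted p = 0.0259), a call lost without tumor 2 (-1.49), tumor 4 (-1.50), control 2 (-1.55) or control 4 (-1.33), with limma adjusted p = 0.0578 to 0.0706. Pcx, pyruvate carboxylase, which starts gluconeogenesis in the mitochondrion, read 175, 30.2, 42.6 and 22.3 on the tumors and 382, 353, 390 and 463 on the controls. It fell by 2.62 ± 0.46, or 6.16-fold (limma adjusted p = 0.00271), with tumor 1 at 44.2% of the control mean and the others between 5.62% and 10.7%. Pck1, the cytosolic phosphoenolpyruvate carboxykinase, was dim on this array, with 58.0, 10.2, -1.70 and 5.40 on the tumors and 25.5, 76.6, 29.1 and 49.5 on the controls. Its change of -1.02 ± 0.47 did not pass (limma adjusted p = 0.108), but it passed without tumor 1 (-1.48, limma adjusted p = 0.00578) and with quantile normalization (-1.36, limma adjusted p = 0.0354), median scaling (-1.39, limma adjusted p = 0.0399) and cyclic loess (-1.52, limma adjusted p = 0.0322). It did not pass with normexp correction before quantile normalization (-0.63, limma adjusted p = 0.0536). Pck2, the mitochondrial form, exceeded background on none of the 8.

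Khk, ketohexokinase, brings fructose into the pathway below phosphofructokinase. It read 2990, 183, 177 and 224 on the tumors and 7392, 4415, 6526 and 3912 on the controls. Khk fell by 3.72 ± 0.82, or 13.2-fold (limma adjusted p = 0.00718), and by 4.68 ± 0.26 without tumor 1 (limma adjusted p = 1.74e-05). A second Khk probe agreed for tumors 2 to 4 (254, 259 and 332, against 4579 to 7076 on the controls) but read -48.7 on tumor 1. That value lies below -27.6, which is -3 times the noise of the array, and without it the change of this probe was -4.34 in place of -5.40.

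The stretches before the starts of G6pc, Fbp1 and Khk are shown because these 3 genes fell together. They are chr11:101367466-101367715 on the plus strand, chr13:62888283-62888532 on the minus strand and chr5:30921309-30921558 on the plus strand (GRCm38.p6, RefSeq), written 5′ to 3′ up to the base before the start. Capitals mark GTTAAT, a part of the HNF1 site, CAAAGT, a part of the HNF4 site, and ACGTG, each on either strand; HNF1 and HNF4 are transcription factors of liver and proximal tubule.
G6pc: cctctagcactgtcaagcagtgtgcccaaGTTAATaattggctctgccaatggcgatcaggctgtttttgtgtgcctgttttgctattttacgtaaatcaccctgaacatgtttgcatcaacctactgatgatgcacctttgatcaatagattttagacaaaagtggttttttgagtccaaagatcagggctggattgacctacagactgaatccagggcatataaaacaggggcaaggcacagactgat
Fbp1: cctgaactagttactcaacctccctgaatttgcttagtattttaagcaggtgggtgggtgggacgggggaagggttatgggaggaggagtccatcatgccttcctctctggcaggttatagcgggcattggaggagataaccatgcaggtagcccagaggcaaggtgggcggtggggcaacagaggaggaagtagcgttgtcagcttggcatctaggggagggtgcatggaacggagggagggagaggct
Khk: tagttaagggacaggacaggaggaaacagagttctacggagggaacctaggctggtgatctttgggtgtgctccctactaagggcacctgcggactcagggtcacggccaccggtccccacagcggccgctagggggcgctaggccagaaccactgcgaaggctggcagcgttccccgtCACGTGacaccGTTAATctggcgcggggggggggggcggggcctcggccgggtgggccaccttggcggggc
GTTAAT starts 221 bases before the start of G6pc and 60 bases before that of Khk, where it follows CACGTG, which holds ACGTG on both strands. The stretch of Fbp1 holds none of the 3 motifs. GTTAAT occurs in 6.43% and CAAAGT in 12.6% of the 32851 stretches, and 4 and 7 of the 35 enzymes hold them before at least 1 start, against 7.49% and 14.1% of all genes. The other enzymes with GTTAAT were Pck1 and Pdha1. Motif matches are letters in these windows and do not show binding.

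**Figure D4:**
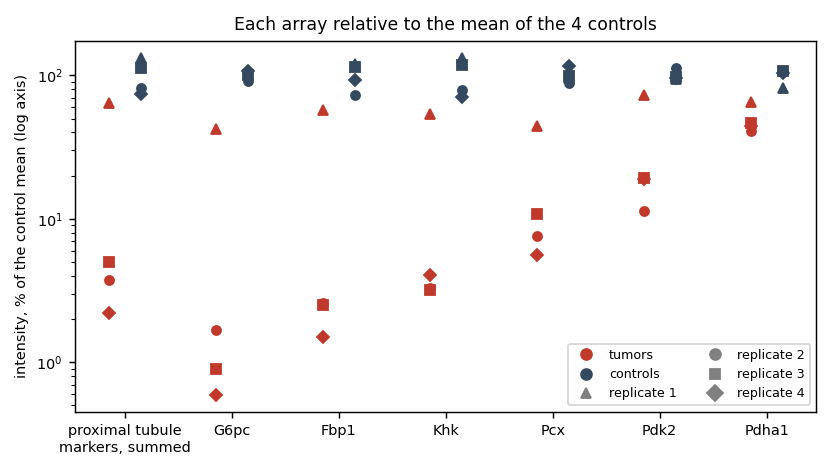
Intensity of 6 enzymes and of the summed proximal tubule markers on each array as a percentage of the mean of the 4 controls, on a log axis, tumors in red and controls in dark blue, symbols giving the replicate. Tumor 1 lies between 42.0% and 73.2% throughout, while tumors 2 to 4 lie at or below 19.2% except for Pdha1, where they lie between 41.1% and 46.4%.

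Proximal tubule markers moved with these enzymes. Of 10 listed markers 7 had a probe, and all 7 of them fell, Miox, an enzyme of inositol breakdown, the most (-5.05 ± 1.39, limma adjusted p = 0.0177). Among all units 12.2% fell. Lrp2, the endocytic receptor megalin, exceeded background on 0 tumors and was at least 1.55-fold lower (limma adjusted p = 0.0236). Their sum was 63.99% of the control mean on tumor 1 and between 2.21% and 5.01% on tumors 2 to 4. Fbp1 was at 57.1% on tumor 1 and between 1.51% and 2.58% on tumors 2 to 4, and Khk at 53.8% and between 3.19% and 4.03%. Pdk2 (73.2% on tumor 1, 11.3% to 19.2% on the others) and Pdha1 (65.2%, 41.1% to 46.4%) kept more of their level on tumors 2 to 4. Of 6 markers of later nephron segments, from Henle's loop on, 5 fell, Pvalb the most (-5.15 ± 1.27, limma adjusted p = 0.0112), and their sum was 65.3% on tumor 1 and 3.33% to 14.5% on tumors 2 to 4. The part of a loss of tubule cells in the falls of the enzymes was not tested.

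Whether isoforms of a step changed unequally was asked with the log2 ratio of both genes within each array, which a scale factor of the array does not move except through the added 16. In all 26 pairs were compared, 17 of isoforms and 9 of enzymes of opposed steps, with an exact two-sided permutation of the 8 arrays, whose smallest p is 0.0286. Of the 26 pairs 9 reached that smallest p, and after Benjamini-Hochberg adjustment over the 26 none passed 0.05 (adjusted exact p = 0.0825 for those 9). With this few arrays a pair cannot pass the adjustment on its own, however large its difference. The adjusted result therefore does not decide about single pairs. The Hk2 change exceeded that of Hk1 by 4.40 ± 0.54 (SE) log2 units, with no overlap of the groups (exact permutation p = 0.0286, adjusted 0.0825). The groups did not overlap for Hk2 against Hk3 either, but Hk3 was above background on 0 controls, so the size of that difference is not defined. Pdk1 exceeded Pdk2 by 3.25 ± 0.77, and the change of Pdk2 minus that of Pdk3 was -1.37 ± 0.38, with the same exact p. Pkm against Pklr overlapped (exact permutation p = 0.0571, adjusted 0.106), and with Pklr under background on all tumors it has no size either. Pairs of Pfk isoforms differed by 0.42 to 0.87 (exact permutation p = 0.171 to 0.429), Aldoa and Aldoc by 0.37 ± 0.58 (exact permutation p = 0.514), and Eno2 and Eno3 by -0.89 ± 0.55 (exact permutation p = 0.143).

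Among opposed steps, the change of Hk2 exceeded that of G6pc by 8.97 ± 1.65 log2 units and that of Hk1 exceeded it by 4.57 ± 1.25 (exact permutation p = 0.0286, adjusted 0.0825, for both). Pfkm exceeded Fbp1 by 4.26 ± 1.17 with the same exact p, while Pfkl and Pfkp exceeded it by 4.68 ± 1.47 and 3.81 ± 1.15 with overlapping groups (exact permutation p = 0.0571 for both). Pkm exceeded Pcx by 3.92 ± 0.96 (exact permutation p = 0.0286), while Pkm and Pck1 overlapped, with a difference of 2.32 ± 0.77 (exact permutation p = 0.0857). Pck1 was above background on only 1 tumor, so the size of its difference from Pkm is uncertain. Pklr was above background on 0 tumors, so its difference from Pcx, whose groups did not overlap, and from Pck1 (exact permutation p = 0.486) has no size here. G6pc, Fbp1 and Pcx enter these pairs with the falls given above.

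**Figure D5:**
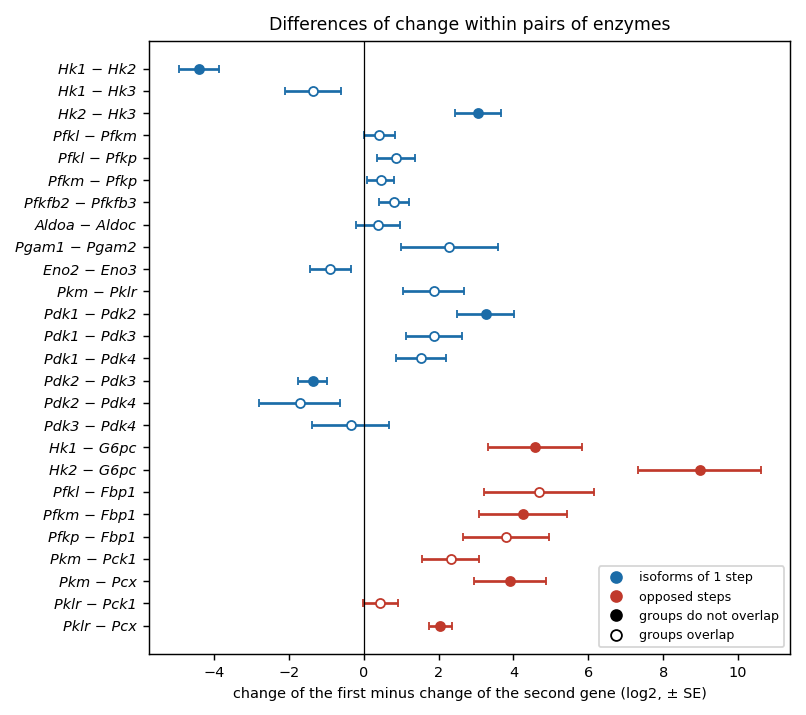
Difference between the changes of both genes of a pair, first minus second, in log2 units with its standard error (4 arrays per group), isoform pairs in blue and opposed steps in red. Filled points mark the 9 pairs whose groups did not overlap, among which Hk2 against G6pc is the largest at 8.97. Points of pairs with Hk3 or Pklr rest on values under background and have no defined size. Pck1 was above background on 1 tumor, and Pfkfb3 on 1 tumor and 1 control, so the sizes of their pairs are uncertain.

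Of 36 other genes of these pathways 31 had a probe and 21 were tested, of which 1 rose and 12 fell (12.2% of all units fell and 32.2% rose). Ldhd, a mitochondrial D-lactate dehydrogenase, fell most (-4.56 ± 0.80, limma adjusted p = 0.00278), with 668, 61.2, 53.2 and 48.5 on the tumors and 1099 to 4947 on the controls. Falls also covered Slc37a4, which brings glucose 6-phosphate to G6pc (-2.14), Tkfc (-2.66), which acts after Khk on fructose, Dlat and Dld of the pyruvate dehydrogenase complex (-1.01 and -0.83) and G6pc3, the widely expressed glucose 6-phosphatase (-0.91). G6pc2, the isoform known from pancreatic islets, was the gene that rose. It read 122, 53.5, 102 and 50.6 on the tumors and did not exceed background on any control, at least 6.04-fold higher in tumors (limma adjusted p = 5.19e-04), and a second, dimmer probe changed by 0.59. Hkdc1, a further hexokinase, changed by 0.68 and Slc16a3, a lactate exporter, by 0.09, and neither passed.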

How the data were processed

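Total RNA of 4 tumors and 4 control kidneys was hybridised to single-colour bead arrays, 1 per sample, per the labels. The values used are intensities on a linear scale that the authors deposited in the series table, with background subtracted and arrays scaled to an equal mean, as read from the values; no source used here names the software. The 16 columns of a further table, of unnormalized signals, match no sample by name and were left out. Processing follows an earlier account of the same data, and the members, lists and tests were chosen with earlier results of these data known.

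The log2 of intensity plus 16 was used, with negative values taken as 0. Noise was 1.4826 times the median size of an array's values below 0, and 3 times the noise was the background limit. The 10279 probes with a mean under the 40th percentile were removed, 15418 were kept, and the brightest kept probe of a symbol stood for its gene (11413 units). The group difference was fitted without covariates in limma 3.58.1 under R 4.3.3, by lmFit with eBayes, with two-sided p-values adjusted by Benjamini-Hochberg, and the script was tested on simulated data. Pairs of enzymes were compared with exact permutation tests in SciPy 1.17.1. For a fold given as "at least", each array of the dimmer group entered with its background limit, or its signal where higher. The labels call the samples biological replicates, and their number limits the precision. All 35 enzymes were to be named, and of each other list the called gene with the largest rise and that with the largest fall. The text also names further genes of these lists, which this rule did not choose. The lists were other pathway genes, hypoxia targets, sex markers and markers of proximal tubule, distal segments, skeletal muscle, leukocytes, red blood cells, neurons, fat cells, nephron progenitors and dividing cells.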

Additional observations from a re-analysis of the deposited data

Results flagged for a closer look

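In 7 of the 62 groups of 4 arrays (31 enzymes, tumors and controls) the highest or lowest array lay far from the other 3, by Dixon's criterion on the log2 scale; chance alone gives about 1 in 20 groups. For 4 enzymes the array was tumor 1, the tumor of 5 weeks, which was higher than tumors 2 to 4: G6pc at 898, Fbp1 at 3386, Khk at 2990 and Pklr at 20.2, the last at or under background. Tumor 4 was high for Aldoc at 245. Among controls, control 2 was high for Pdk2 at 434 and control 1 low for Pdha1 at 3470.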

How the results depend on the processing

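Of the 13 called enzymes 9 passed in the same direction under all 23 alternatives (Hk2, Eno2, Eno3, Pdk2, Pdha1, Pcx, G6pc, Fbp1 and Khk), 4 were lost at least once (Pfkfb2, Pkm, Pdk1 and Fbp2) and 0 changed direction. Array weights raised the count over all units from 5064 to 7644 and the count of called enzymes from 13 to 21. Other settings left between 10 and 18 enzymes called, and leaving out 1 array gave 3642 to 5746 calls over all units and 10 to 18 enzymes, with the highest without tumor 1. The split of calls depended on the scaling: 3677 rose and 1387 fell with the authors' scaling (72.6% higher), 2410 and 1918 with quantile normalization (55.7%), 2354 and 1852 with normexp correction before it (56.0%), 2033 and 2355 with median scaling (46.3%) and 2141 and 2135 with cyclic loess (50.1%), and the median of all units moved from 0.35 to 0.05, 0.03, -0.02 and -0.01. Among the enzymes 6 rose and 7 fell with the authors' scaling, 4 and 8, 4 and 7, 3 and 14, and 3 and 9 with these. With the replicate block 5088 units and 12 enzymes were called, the loss being Fbp2 (limma adjusted p = 0.0672). Same-numbered deviations correlated by 0.21, 0.20, 0.11 and 0.07, and differently numbered ones by -0.34 to 0.28. These values do not settle whether the numbers are pairs, and they were not taken as pairs. Besides, 4 pairs cannot bring an exact sign permutation of a ratio below 0.125. Values far below 0 taken as missing, chosen after seeing the data, left 14 enzymes called.

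Changes of 7 enzymes that did not pass changed sign; the cause was not tested. With quantile normalization Pfkfb3 changed by -0.14, Pgk1 by -0.35, Pgam1 by -0.075 and Ldha by 0.20, and with normexp by -0.034, -0.20, -0.065 and 0.20. With median scaling Pfkm changed by -0.32, Pfkfb3 by -0.23, Pgk1 by -0.35 and Pgam1 by -0.32. With cyclic loess Pfkm changed by -0.11, Pfkfb3 by -0.15, Pgk1 by -0.40, Pgam1 by -0.17 and Ldha by 0.13. Pgk1 changed by -0.020 with 64 added. With array weights Hk1 changed by 0.10, Pgk1 by -0.14, Pgam1 by -0.39 and Pdk4 by 0.64, and at 4 months alone Pfkm by -0.13 and Pfkfb3 by -0.15. Leaving out 1 array gave -0.41 to 0.11 for Hk1, -0.083 to 0.17 for Pfkm, -0.14 to 0.38 for Pfkfb3, -0.34 to 0.24 for Pgk1, -0.067 to 0.26 for Pgam1, -0.23 to 0.087 for Ldha, -0.53 to 0.33 for Pdk4, and -0.998 to 0.20 for Pdk3 minus Pdk4. Pfkl minus Pfkm was -0.051 with probes of a gene averaged. Signal over background limits Pgk1, Pfkfb3, Pklr, Hk3, Pck1 and Pck2.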

Other observations

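The array of tumor 1 held values far below 0 on probes that were bright elsewhere. On 155 probes it read below -3 times its noise while each of the other 7 arrays read above 25, and on 97 of them the others read above 100. On each of the other 7 arrays 0 such probes were found. Of the 44 enzyme probes 2 were among them, the second probes of Khk (-48.7) and Pfkp (-53.3). Setting such values to 0 makes tumor 1 look low for these probes, and the change of that Pfkp probe was -0.71 with the value at 0 and -0.12 without it. The probes that stood for the genes in the text did not include them.

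Markers of other cell types gave these counts, where 32.2% of all units rose and 12.2% fell. Of 6 nephron progenitor markers 5 rose and 0 fell, with Six2 at least 9.90-fold higher, and their sum was 593 to 1768 on tumors and 193 to 292 on controls. All 3 tested markers of dividing cells rose, Top2a by 4.97. Of 3 red blood cell markers and 2 fat cell markers that were tested 0 passed, with sums of 5740 to 22739 on tumors and 15934 to 21740 on controls for red blood cells and 3.40 to 1915 and 0 to 191 for fat cells, where tumor 2 held the 1915.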
